A study of Rattus norvegicus with 119 samples.

Results

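Bladder urothelium of Sprague-Dawley rats given rosiglitazone maleate by mouth at 10 mg/kg/day for 90 days was set against urothelium of rats given the vehicle, 0.5% methylcellulose, for the same time. The comparison holds 20 of the 119 arrays of the series, chosen by their labelled agent, dose and day alone: 5 rosiglitazone females, 5 vehicle females, 5 rosiglitazone males and 5 vehicle males. All 20 were marked as passing the submitters' quality control. The other arrays of the series cover days 3 and 28 and pioglitazone hydrochloride, a second drug of the same class, at 16 or 63 mg/kg/day. Per the labels, 10 rats of each sex and group were dosed daily in a volume of 10 mL/kg, the bladder lining was scraped off with a scalpel 1 day after the last dose, and 5 arrays per sex and group were run. The strain is an outbred one and the labels name no genotype. Each array measured 301 rat miRNAs on Agilent 1-colour miRNA arrays, and values are log2 signals, so a difference of 1 is a doubling. The files do not tie an array to a rat by number, so p-values measure the spread between these arrays.

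Rosiglitazone activates PPAR gamma, a nuclear receptor that switches on the gene programme of fat cells and is also made in urothelium, the lining of the bladder, where it takes part in the maturation of its surface cells. A miRNA is a short RNA that lowers the output of messenger RNAs carrying a match to its seed, the bases near its start. Urothelium is rich in the miR-200 family, miR-203 and miR-205, which keep cells epithelial, whereas miR-1, miR-133, miR-143 and miR-145 belong to muscle, which lies under the lining.

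The miRNAs that the results turn on are shown as RefSeq gives their mature forms (GRCr8 build), 5′ to 3′, with the seed, bases 2 to 8, in capitals. Array names without an arm were paired by hand with the RefSeq arm usually meant by that name. The first set shows the miRNAs that stood out over both sexes and their genomic neighbours.
miR-10a-5p: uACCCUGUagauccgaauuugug
miR-10a-3p: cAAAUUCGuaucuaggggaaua
miR-365: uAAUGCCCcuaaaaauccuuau
miR-193: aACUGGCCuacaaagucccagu
miR-132: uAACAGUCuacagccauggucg
miR-212: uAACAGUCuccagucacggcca
miR-375: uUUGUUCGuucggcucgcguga

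The second set shows the miR-181 family, whose 4 members share a seed, the pair miR-221 and miR-222, which share another, and miR-99b. MiR-222, miR-181b, miR-181c and miR-99b were among the miRNAs of smallest p in one sex or between the sexes, and the rest are shown as their relatives.
miR-181a: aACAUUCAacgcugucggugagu
miR-181b: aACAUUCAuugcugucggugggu
miR-181c: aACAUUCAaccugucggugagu
miR-181d: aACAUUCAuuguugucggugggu
miR-221: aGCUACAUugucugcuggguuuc
miR-222: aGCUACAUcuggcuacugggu
miR-99b: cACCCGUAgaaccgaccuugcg

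Both arms of the miR-10a hairpin lie at chr10:81779730-81779752 and chr10:81779771-81779792 on the plus strand. MiR-193 and miR-365 start 13901 bases apart on chromosome 10, and miR-132 and miR-212 start 280 bases apart on the same chromosome. MiR-181c and miR-181d start 170 bases apart on chromosome 19, and miR-221 and miR-222 start 564 bases apart on chromosome X. MiR-181a is made from 2 loci, on chromosomes 3 and 13, so its value cannot be assigned to either.

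A few arrays stood apart. The median of the 301 miRNAs was 3.80 in rosiglitazone female 3, 3.80 in rosiglitazone male 3 and 3.70 in vehicle female 2, against 5.00 to 5.59 in the other 17 arrays, and 17 of the 119 arrays of the series had a median under 4. Correlations between pairs of the 20 arrays ran from 0.49 to 0.993, and among the 17 arrays the lowest was 0.86. The array median averaged 5.07 ± 0.69 in rosiglitazone arrays and 5.25 ± 0.56 in vehicle arrays (SD, n = 10 each), a difference of -0.17 (two-sided exact permutation test within sex over 63504 arrangements, p = 0.566). Results that move when these 3 arrays are left out are given both ways, over 20 and over 17 arrays, an alternative chosen after seeing the data.

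The brighter epithelial markers were high in every array. Over the 20 arrays miR-200a ran from 10.96 to 14.14, miR-200b from 10.78 to 13.87 and miR-205 from 9.99 to 13.82. The mean of the 13 epithelial miRNAs measured ran from 7.24 to 10.14 in rosiglitazone females, 8.30 to 10.28 in vehicle females, 8.04 to 10.10 in rosiglitazone males and 9.26 to 9.67 in vehicle males. Other epithelial miRNAs sat near the lower end of the table in arrays of low median, with miR-183 at 3.37 in vehicle female 2, and miR-182 at 3.07 and miR-96 at 3.57 in rosiglitazone male 3. The mean of the 9 muscle miRNAs ran from 5.13 to 9.06 in rosiglitazone females, 5.17 to 8.0 in vehicle females, 4.29 to 9.23 in rosiglitazone males and 6.06 to 7.0 in vehicle males, and miR-143 alone ran from 8.04 to 16.22. No listed miRNA could be read as absent, because the table carries no detection calls and its values bottom out near 3.

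**Figure D1:**
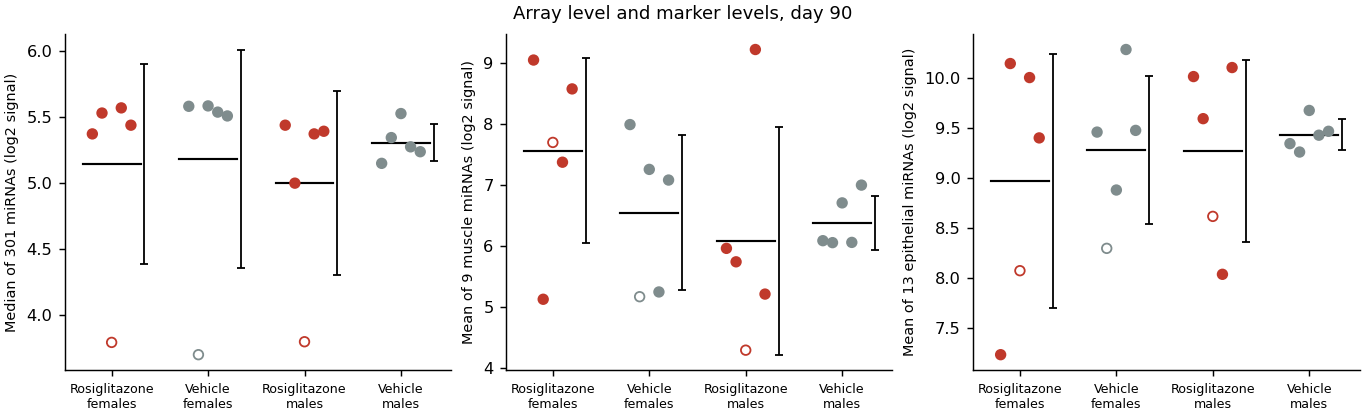
Array median of 301 miRNAs, mean of 9 muscle miRNAs and mean of 13 epithelial miRNAs (y axes, log2 signal) for each of the 4 groups of 5 arrays, day 90. Points are arrays, open points the 3 arrays with a median under 4, lines the group means and bars ± 1 SD. The 3 open points sit near 3.7 to 3.8 in the first panel, and the muscle mean reaches 9.23 in 1 rosiglitazone male.

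Over both sexes, no miRNA differed between rosiglitazone and vehicle urothelium at the adjusted threshold. The smallest p-values belonged to miR-10a-5p, lower with rosiglitazone, and miR-365, higher with rosiglitazone, and neither passed. In limma with sex as a block, 0 of 301 miRNAs (0%) had an adjusted p under 0.05, and the smallest adjusted p was 0.632. At an unadjusted p under 0.05 there were 9 of 301 (2.99%), 1 higher (0.332%) and 8 lower (2.66%). Leaving out the 3 arrays of low median also gave 0 calls, with 22 at an unadjusted p under 0.05 (7.31%) and a smallest adjusted p of 0.0798. The 95% interval of a difference had a median half-width of 0.73, and for 148 of 301 miRNAs the interval lay inside 1 log2 unit either way. Without the 3 arrays the half-width was 0.46. In a scraped tissue, fewer cells of a type and less RNA per cell cannot be told apart.

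MiR-10a lies within the HoxB gene cluster and its level marks position along the body axis. Its 5p arm had log2 signals of 11.40, 12.81, 11.41, 12.87 and 12.25 in rosiglitazone females, against 13.26, 12.78, 12.90, 13.58 and 13.07 in vehicle females. Rosiglitazone males had 12.95, 12.67, 12.51, 11.43 and 13.06, against 13.25, 13.11, 13.22, 13.32 and 12.92 in vehicle males. The vehicle arrays lay close together in both sexes, whereas the rosiglitazone arrays reached from vehicle levels to well under them, so the groups overlapped. The values of 11.40, 11.41 and 11.43 are those of rosiglitazone females 1 and 3 and male 4. These had the lowest epithelial means of the rosiglitazone arrays, at 7.24, 8.07 and 8.04, and female 3 was an array of low median. A link between these values was not tested. Means were 12.34 ± 0.68 in rosiglitazone arrays and 13.14 ± 0.24 in vehicle arrays (SD, n = 10 each), a log2 difference of -0.81 (SE 0.23, limma p = 0.00213, adjusted p = 0.632), and -0.75 without the 3 arrays of low median (adjusted p = 0.236).

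The 3p arm of the same hairpin, normally the less abundant strand, had 4.38, 5.92, 3.79, 5.77 and 5.11 in rosiglitazone females, against 6.01, 5.19, 5.07, 6.56 and 5.41 in vehicle females. In males it had 6.38, 5.37, 3.88, 4.64 and 6.03 with rosiglitazone, against 7.0, 6.85, 5.91, 6.06 and 5.85 with vehicle. The lowest rosiglitazone array of each sex was the one with a low median, and 3 of the 5 rosiglitazone males were below every vehicle male. The log2 difference was -0.86 (SE 0.34, limma adjusted p = 0.977), and -0.60 without the 3 arrays. MiR-10b, the close relative in the HoxD cluster, was named after its values were seen. It averaged 10.61 ± 0.51 in rosiglitazone arrays and 10.62 ± 0.57 in vehicle arrays (SD, n = 10 each), a log2 difference of -0.02. Without the 3 arrays miR-10b differed by -0.15 over both sexes, 0.06 in females and -0.34 in males.

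MiR-365 is made from a locus it shares with miR-193, and the related miR-193b and miR-365 locus is known in mice for its part in brown fat cells. Its log2 signals were 11.83, 11.59, 11.72, 11.01 and 11.27 in rosiglitazone females, against 11.14, 8.90, 10.24, 10.41 and 10.55 in vehicle females. Rosiglitazone males had 10.98, 10.55, 12.65, 12.05 and 11.06, against 11.23, 11.01, 10.52, 10.87 and 10.66 in vehicle males. The females were apart in 4 of 5 rosiglitazone arrays, which were above every vehicle female, and 2 of 5 rosiglitazone males were above every vehicle male. The highest rosiglitazone male and the lowest vehicle female were arrays of low median. The log2 difference was 0.92 (SE 0.28, limma adjusted p = 0.632), and 0.56 without the 3 arrays (adjusted p = 0.413).

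Its neighbour miR-193, described after its values were seen, was the miRNA of smallest p once the 3 arrays were left out. It had 7.82, 8.40, 3.33, 8.84 and 8.31 in rosiglitazone females, against 7.40, 3.10, 7.05, 7.64 and 7.99 in vehicle females. Rosiglitazone males had 7.76, 8.06, 3.31, 7.81 and 8.43, against 6.06, 7.04, 7.62, 6.83 and 7.11 in vehicle males. The values near 3 are those of the 3 arrays of low median. In the other arrays, all 4 rosiglitazone males were above every vehicle male and 3 of 4 rosiglitazone females were above every vehicle female. Over 20 arrays the log2 difference was 0.42 (SE 0.78, limma adjusted p = 0.977), and over 17 arrays it was 0.96 (SE 0.21, adjusted p = 0.0798).

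**Figure D2:**
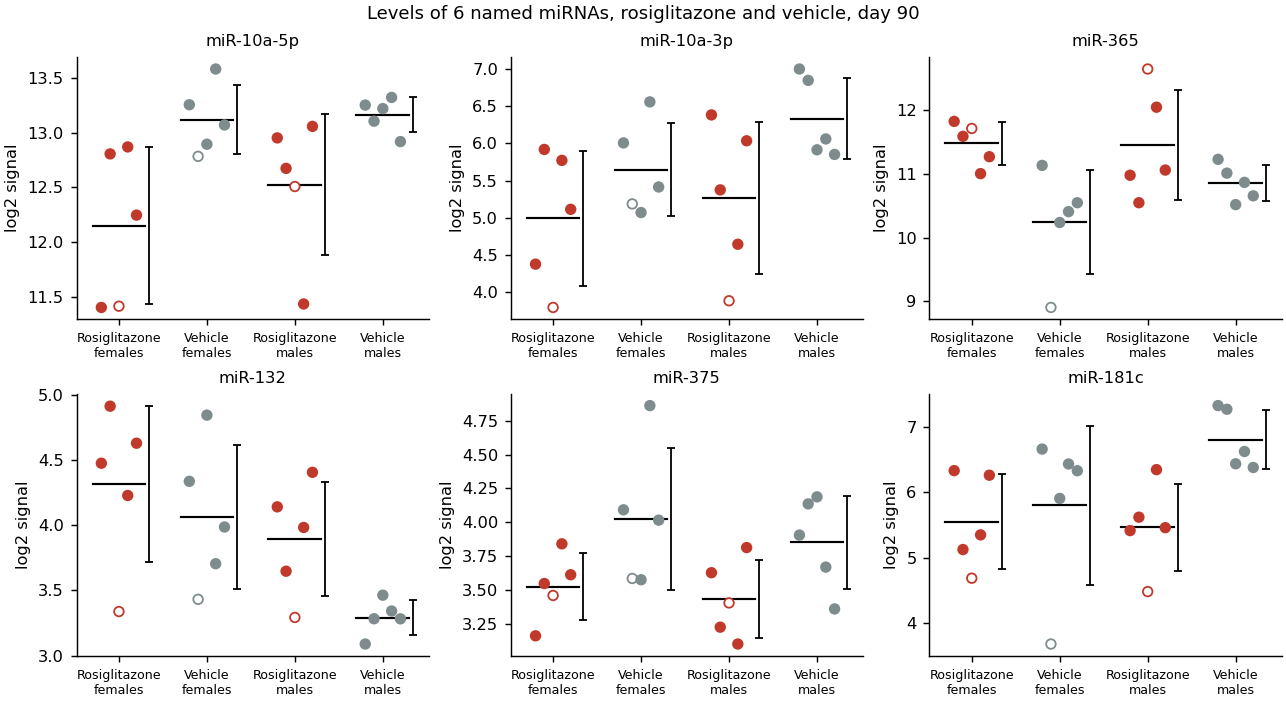
Log2 signal (y axes) of miR-10a-5p, miR-10a-3p, miR-365, miR-132, miR-375 and miR-181c in the 4 groups of 5 arrays at day 90. Points are arrays, open points the 3 arrays with a median under 4, lines the group means and bars ± 1 SD. MiR-10a-5p is spread from 11.40 to 13.06 with rosiglitazone and from 12.78 to 13.58 with vehicle.

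MiR-132, a miRNA switched on by the transcription factor CREB and known from neurons and inflammation, ranked next on the higher side. It had 4.47, 4.91, 3.34, 4.23 and 4.63 in rosiglitazone females, against 4.34, 3.43, 4.84, 3.70 and 3.99 in vehicle females. Rosiglitazone males had 4.14, 3.65, 3.29, 3.98 and 4.40, against 3.09, 3.28, 3.46, 3.34 and 3.28 in vehicle males. Among males, 4 of 5 rosiglitazone arrays were above every vehicle array, and the fifth was the array of low median, while the females overlapped widely. The log2 difference was 0.43 (SE 0.21, limma adjusted p = 0.977), and 0.56 without the 3 arrays (adjusted p = 0.233). MiR-212, from the same transcript and with the same seed, had a log2 difference of -0.98 (SE 0.62, adjusted p = 0.977), with 3.04 in the rosiglitazone male and 10.04 in the vehicle female of low median. Its difference rounded to 0.00 without the 3 arrays.

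MiR-375, best known from pancreatic islets, had 3.16, 3.55, 3.46, 3.84 and 3.61 in rosiglitazone females, against 4.09, 3.58, 3.57, 4.86 and 4.01 in vehicle females. In males it had 3.63, 3.22, 3.40, 3.10 and 3.81 with rosiglitazone, against 3.90, 4.14, 4.19, 3.67 and 3.36 with vehicle. Most rosiglitazone values were near the lower end of the table, where small differences are hard to read. The log2 difference was -0.46 (SE 0.16, limma adjusted p = 0.977), and -0.50 without the 3 arrays.

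The other miRNAs of smallest p, none past the adjusted threshold, had smaller or less steady differences. On the higher side these were miR-186 (0.60), miR-22 (0.33), miR-138 (0.33), miR-340-3p (0.33), miR-421* (0.26), miR-410 of the imprinted Dlk1-Dio3 cluster (0.24), miR-702-3p (0.21) and miR-190* (0.17), where an asterisk marks the minor strand of a hairpin. Adjusted p was 0.977 for each, and miR-410 averaged 3.70 over the 20 arrays, near the lower end of the table. MiR-186 stood at 0.05 without the 3 arrays, and its vehicle female of low median was at 5.13, against 7.21 to 7.98 in the other vehicle females. MiR-22 stood at 0.18, miR-702-3p at 0.10 and miR-196c at -0.19 without the 3 arrays. On the lower side were miR-320 (-0.79), which is processed without the enzyme Drosha, miR-328a* (-0.54), miR-30c-2* (-0.41), miR-196c (-0.39), a miRNA of the Hox clusters, and miR-598-5p (-0.27), as well as miR-181c and miR-181d, described below. MiR-320 stood at -0.33 without the 3 arrays and miR-328a* at -0.31.

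**Figure D3:**
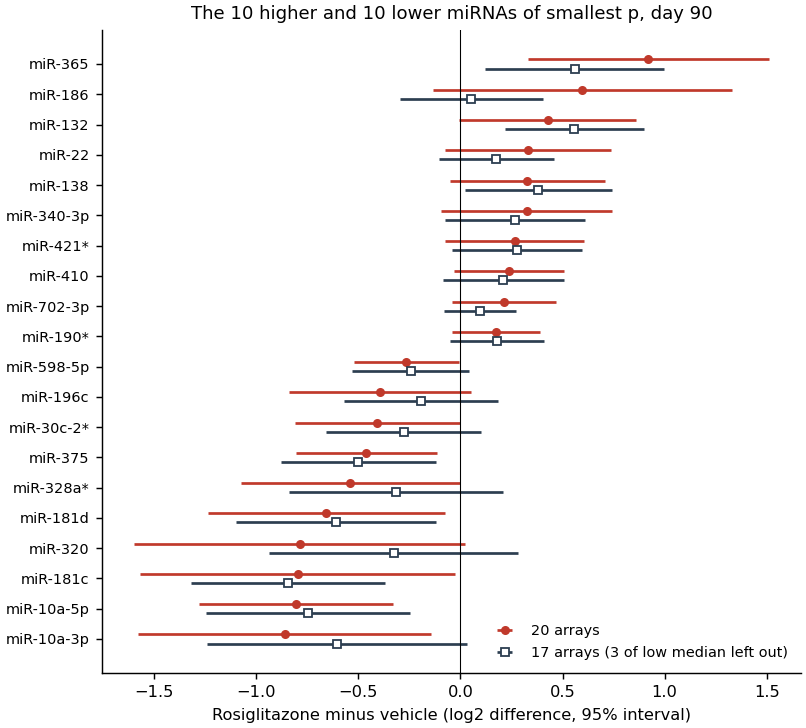
Log2 difference, rosiglitazone minus vehicle, with its 95% interval (x axis) for the 10 higher and 10 lower miRNAs of smallest p (rows). Filled circles are from 20 arrays and open squares from the 17 arrays left without the 3 of low median. MiR-365 stands at 0.92 and 0.56, and miR-186 at 0.60 and 0.05.

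The sexes were next taken apart, with all 4 groups in 1 fit. In females, miR-99b, miR-365 and miR-186 were the higher miRNAs of smallest p, and in males miR-222 and members of the miR-181 family were the lower ones, with no miRNA past the adjusted threshold in either. In females 0 of 301 (0%) were called and 14 (4.65%) had an unadjusted p under 0.05, 9 higher (2.99%) and 5 lower (1.66%). In males 0 of 301 (0%) were called and 11 (3.65%) had an unadjusted p under 0.05, 1 higher (0.332%) and 10 lower (3.32%). Without the 3 arrays of low median, 12 (3.99%) had an unadjusted p under 0.05 in females, with 0 called. With all arrays the smallest adjusted p was 0.788 in females and 0.998 in males, and the median half-width of an interval was 1.05 in each.

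MiR-99b, of the wider miR-10 family and made together with let-7e and miR-125a, was the only miRNA whose female groups did not overlap (0.332% of 301). It had 10.08, 9.66, 9.91, 9.06 and 9.48 in rosiglitazone females, against 9.01, 6.56, 8.42, 8.84 and 8.79 in vehicle females. Rosiglitazone males had 8.78, 9.17, 10.05, 9.91 and 9.06, against 10.07, 9.90, 9.43, 9.34 and 9.85 in vehicle males. The female groups touched almost at 9.06 and 9.01, and in males 3 of the 5 rosiglitazone arrays were below every vehicle array. The log2 difference was 1.32 in females (SE 0.39, limma adjusted p = 0.788) and -0.33 in males, and without the 3 arrays it was 0.81 in females and -0.49 in males.

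The other lower miRNAs of smallest p in females were miR-10a-5p at -0.97, miR-328a* at -0.93 and miR-327 at -2.87. MiR-327 rested on 2 vehicle arrays. It had 4.81, 3.42, 3.55, 3.43 and 3.67 in rosiglitazone females, against 3.45, 11.46, 9.91, 4.53 and 3.88 in vehicle females. Its difference was -1.61 without the 3 arrays (limma adjusted p = 0.992).

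MiR-222, which together with miR-221 represses the cell-cycle inhibitor p27, had the smallest p in males. Rosiglitazone males had 5.69, 6.10, 3.70, 7.88 and 5.77, against 8.61, 8.45, 7.26, 7.47 and 7.67 in vehicle males. Rosiglitazone females had 8.27, 6.81, 9.54, 5.62 and 6.18, against 6.44, 5.48, 5.52, 5.76 and 5.74 in vehicle females. Rosiglitazone males were below every vehicle male in 4 of 5 arrays, while 3 of 5 rosiglitazone females were above every vehicle female. The log2 difference was -2.06 in males (SE 0.70, limma adjusted p = 0.998) and 1.49 in females. The lowest rosiglitazone male and the highest rosiglitazone female were arrays of low median, and without the 3 arrays the difference was -1.53 in males (adjusted p = 0.233) and 0.85 in females (adjusted p = 0.992). MiR-221, named after its values were seen, differed by -0.68 in males and 0.45 in females, and without the 3 arrays by 0.05 in males and 0.40 in females.

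The miR-181 family, known for setting the sensitivity of T cells and made in many tissues, had differences below 0 in males for miR-181a, miR-181b, miR-181c and miR-181d, none past the adjusted threshold, and of 0.08 for the minor strand miR-181a-1*. MiR-181c had 5.41, 5.62, 4.48, 6.34 and 5.46 in rosiglitazone males, against 7.32, 7.27, 6.43, 6.62 and 6.38 in vehicle males. In females it had 6.33, 5.12, 4.69, 5.35 and 6.26 with rosiglitazone, against 6.66, 3.68, 5.90, 6.43 and 6.33 with vehicle. The male groups did not overlap and the female groups did. The male log2 difference was -1.34 (SE 0.50, limma adjusted p = 0.998), and over both sexes it was -0.80 (SE 0.37, adjusted p = 0.977). The values without the 3 arrays were -1.10 in males (adjusted p = 0.128), -0.57 in females and -0.84 over both sexes (adjusted p = 0.167).

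MiR-181b had 6.79, 6.19, 3.75, 6.42 and 6.43 in rosiglitazone males, against 7.98, 7.89, 6.81, 6.96 and 7.11 in vehicle males. These groups nearly touched, at 6.79 and 6.81. The male difference was -1.43 (SE 0.52, limma adjusted p = 0.998), and -0.89 without the 3 arrays. MiR-181d differed by -1.02 in males and -0.29 in females, and by -0.66 over both sexes (SE 0.28, adjusted p = 0.977), or -0.61 without the 3 arrays. MiR-181a differed by -0.87 in males and -0.03 in females, and without the 3 arrays by -0.68 over both sexes (SE 0.21, adjusted p = 0.236).

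In all, 6 miRNAs had male groups that did not overlap, each lower with rosiglitazone (1.99% of 301): miR-181b, miR-181c, miR-219-5p, miR-25, miR-328b-3p and miR-466b. None was higher without overlap in males (0%). The higher miRNAs of smallest p in males were miR-340-3p at 0.62, miR-132 at 0.60 and miR-421* at 0.43, which stood at 0.44, 0.75 and 0.39 without the 3 arrays.

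Without the 3 arrays of low median, 1 of them a rosiglitazone male, 1 miRNA passed in males: miR-30d fell (0.332% of 301 called, and 41 or 13.6% at an unadjusted p under 0.05). MiR-30d belongs to the miR-30 family, which is abundant in epithelia, and it is described because of this result. Rosiglitazone males had 10.04, 10.51, 12.68, 10.18 and 9.61, against 11.55, 11.54, 10.73, 11.18 and 11.47 in vehicle males. Rosiglitazone females had 10.61, 10.54, 11.68, 10.35 and 10.13, against 10.25, 11.50, 9.65, 10.37 and 9.89 in vehicle females. The values of 12.68, 11.68 and 11.50 are those of the 3 arrays of low median, and the other 4 rosiglitazone males lie below all vehicle males. The male log2 difference was -1.21 over 17 arrays (SE 0.22, limma adjusted p = 0.0179) and -0.69 over 20 arrays (adjusted p = 0.998). Of the 11 miR-30 family members, 7 had an unadjusted p under 0.05 in males over 17 arrays, beside 13.6% of all 301. Over 20 arrays 1 did, beside 3.65% of all 301. The count of 7 takes both directions, and over 17 arrays 4 of the 11 were above 0, with a male median of -0.07.

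**Figure D4:**
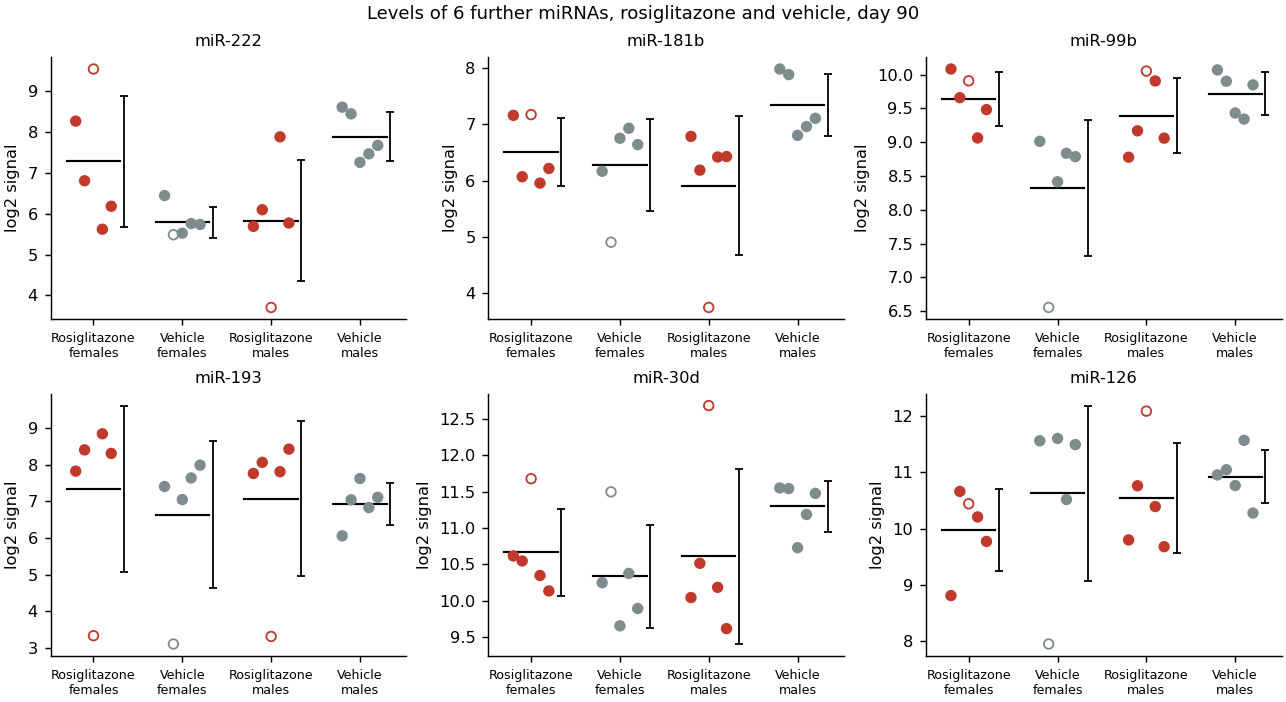
Log2 signal (y axes) of miR-222, miR-181b, miR-99b, miR-193, miR-30d and miR-126 in the 4 groups of 5 arrays at day 90. Points are arrays, open points the 3 arrays with a median under 4, lines the group means and bars ± 1 SD. MiR-222 is lower with rosiglitazone in 4 of 5 males, and the open points of miR-193 sit near 3 while those of miR-30d are the highest of their groups.

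The difference between the sexes was then tested itself, as the female effect minus the male effect. No miRNA passed: 0 of 301 (0%) were called, 11 (3.65%) had an unadjusted p under 0.05, 10 of them with the female effect above the male (3.32%), and the smallest adjusted p was 0.674. MiR-222 had the smallest p, with a difference of 3.56 (SE 0.99, limma adjusted p = 0.674), and stood at 2.38 without the 3 arrays (adjusted p = 0.621). Next by p on the higher side were miR-99b at 1.64 and miR-331 at 2.16, which stood at 1.30 and 1.11 without the 3 arrays. On the other side were miR-664-1* at -1.94, miR-126* at -1.66 and miR-483* at -1.11, which stood at -0.95, -1.82 and -0.57. MiR-30d had a sex difference of 1.02 over 20 arrays and of 1.58 over 17 arrays (adjusted p = 0.0519), where 16 of the miRNAs (5.32%) had an unadjusted p under 0.05 and 0 were called.

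Across the 301 miRNAs the female and male differences ran in the same direction in 48.5%, with Pearson's r of -0.17 and Spearman's rho of -0.08. Without the 3 arrays the share was 53.8% and r was 0.04. These values are across miRNAs of the same arrays, which are not independent, and are given as a description. MiR-10a-5p and miR-365 had the same direction in both sexes, at -0.97 and 1.24 in females and -0.64 and 0.60 in males. MiR-365 differed by 0.84 in females and 0.30 in males without the 3 arrays.

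**Figure D5:**
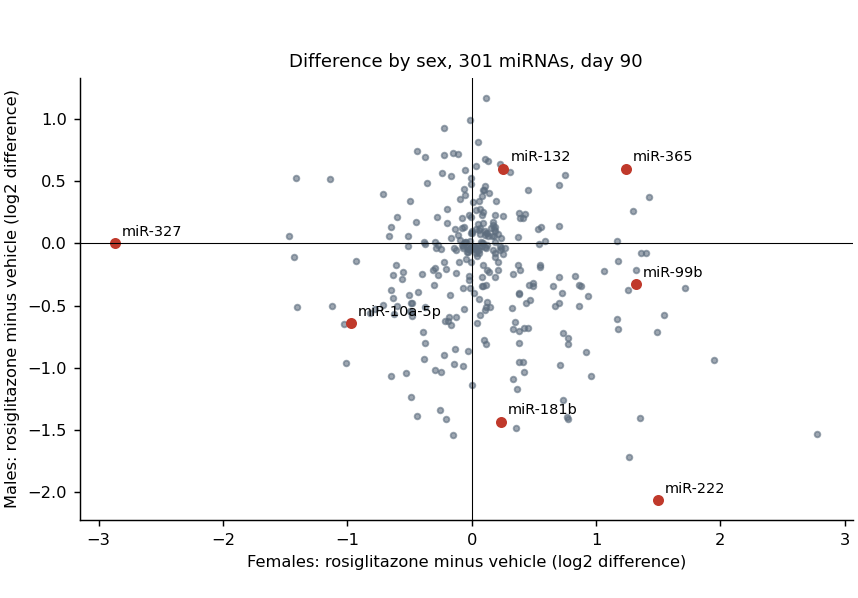
Log2 difference, rosiglitazone minus vehicle, in females (x axis) and in males (y axis) for 301 miRNAs at day 90, each point 1 miRNA. Red points are named: miR-222 stands at 1.49 in females and -2.06 in males, and miR-365 at 1.24 and 0.60.

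Groups of miRNAs were described by counts and medians, beside the median of -0.01 over all 301 for both sexes. In every group 0 members were called. Of the 21 miRNAs linked to fat cells and PPAR gamma, 18 had a difference above 0 and 3 below, with a median of 0.27. Of all 301, 158 were below 0. With all arrays, miR-365 was the only one of the 21 with an unadjusted limma p under 0.05, beside 2.99% of all 301. Without the 3 arrays of low median, 5 of the 21 had such a p, in either direction, beside 7.31% of all 301. In females the count went from 1 to 3, beside 3.99% of all 301 without the 3 arrays. In males it went from 0 to 6, beside 13.6%. MiR-130a, which lowers PPAR gamma itself, differed by 0.34 and miR-27a, another such miRNA, by 0.66, both over 20 arrays. MiR-27a ran from 4.15 to 12.28 around a mean of 11.42 in these arrays, so a single low array can move its difference. Neither difference is given without the 3 arrays. The group's median was 0.54 in females and 0.09 in males, and without the 3 arrays it was 0.24 in females, 0.15 in males and 0.18 over both sexes. It shares miR-143 and miR-143* with the muscle list, whose 9 members had a median of 0.51, with 7 above 0. The muscle median was 1.42 in females and -0.36 in males. It was, without the 3 arrays, 0.79 in females, 0.10 in males and 0.32 over both sexes, and with quantile normalization the male median was 0.24. With the muscle mean of each array as a covariate the fat-linked median was 0.14, and the limma fit called 0 miRNAs, with a smallest adjusted p of 0.299 for miR-10a-5p. The part of muscle in the other values was not tested.

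Of the 13 epithelial miRNAs, 11 were below 0 and 2 above, with a median of -0.29 that reached from -0.59 for miR-200c to 0.15 for miR-96. With each array centred on its median the epithelial median was -0.12, beside 0.16 over all 301. Uncentred, these medians were -0.29 and -0.01. Without the 3 arrays the epithelial median was -0.21, beside -0.01 over all 301, with 5 of 13 above 0. Among the miR-181 family, miR-221 and miR-222, 6 of 7 were below 0, beside 158 of all 301, with a median of -0.45, and 2 had an unadjusted p under 0.05, beside 2.99% of all 301. That group's median was -1.02 in males and -0.01 in females, beside -0.08 and 0.06 over all 301. Without the 3 arrays it was -0.89 in males, -0.27 in females and -0.60 over both sexes.

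Markers of other cells were counted in the same way. The 7 fibroblast miRNAs had a median of -0.04, or -0.22 without the 3 arrays, and the 3 red cell ones 0.27, or 0.14. The 5 leukocyte miRNAs had -0.42, or -0.17 without the 3 arrays, and the 4 neuronal ones 0.05, or 0.14. The endothelial pair had -0.41, or -0.78 without the 3 arrays. MiR-126, made within the endothelial gene Egfl7, differed by -0.51 over 20 arrays and -1.08 over 17 arrays (SE 0.27, limma adjusted p = 0.167). Its other strand, miR-126*, differed by -0.31 over 20 arrays and -0.48 over 17 arrays. By sex over 17 arrays, miR-126 differed by -1.43 in females and -0.76 in males, and miR-126* by -1.44 in females and 0.38 in males.

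The 32 miRNAs of the Dlk1-Dio3 cluster had a median of 0.09, with 23 above 0, and the 13 of the miR-17 cluster and its paralogs, which promote cell growth, had -0.05. The let-7 family, 13 miRNAs that mark mature cells, had -0.03, the 5 of the miR-29 family, which lower collagens, 0.15, and the 11 of the miR-30 family -0.04. The miR-29 median was -0.10 without the 3 arrays, with 1 of 5 above 0 where 4 of 5 had been over 20 arrays. The 7 of the family of miR-15, miR-16 and miR-322 had -0.10, the 7 p53-responsive miRNAs, among them miR-34a, -0.03, and the 9 linked to injury and inflammation -0.19, or -0.03 without the 3 arrays. With each array centred on its median, the fibroblast, miR-17 and let-7 medians were 0.13, 0.12 and 0.15. The miR-30, p53 and miR-15 medians were then 0.13, 0.14 and 0.08. The median over all miRNAs measured also rose with centring, from -0.01 to 0.16. Each of these group medians lay below that over all miRNAs, before and after centring. The hypoxia miRNA miR-210 differed by -0.13 over both sexes, 0.71 in females and -0.97 in males, and without the 3 arrays by 0.27 over both sexes, 0.82 in females and -0.22 in males. None of these medians was tested.

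The effect at day 90 was set against that at day 3, in 40 arrays of rosiglitazone and vehicle rats. MiR-365 stood higher with rosiglitazone at day 90 and not at day 3, and miR-181c and miR-181d lower at day 90 and higher at day 3, but no miRNA passed the test of the change. In limma 0 of 301 (0%) were called, 25 (8.31%) had an unadjusted p under 0.05, 5 higher (1.66%) and 20 lower (6.64%), and the smallest adjusted p was 0.422. Without the 4 arrays of low median among them, 0 were called and 16 (5.32%) had an unadjusted p under 0.05. MiR-365 averaged 10.53 ± 0.76 with rosiglitazone and 10.79 ± 0.54 with vehicle at day 3, and 11.47 ± 0.62 with rosiglitazone and 10.55 ± 0.67 with vehicle at day 90 (SD, n = 10 each). The day-90 effect exceeded that at day 3 by 1.18 (SE 0.40, adjusted p = 0.422), and by 0.94 without the arrays of low median (adjusted p = 0.540).

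MiR-181d averaged 6.27 ± 0.59 with rosiglitazone and 5.74 ± 0.61 with vehicle at day 3, and 5.26 ± 0.63 with rosiglitazone and 5.91 ± 0.59 with vehicle at day 90 (SD, n = 10 each). Its effect at day 90 was lower by 1.19 on the log2 scale, coded -1.19 (SE 0.38, limma adjusted p = 0.422), and its adjusted p was 0.540 without the arrays of low median. The other miRNAs of smallest p were miR-369-5p at 0.64 and miR-337 at 0.80, both of the Dlk1-Dio3 cluster, and miR-202* at -1.38 and miR-672 at -1.42. MiR-369-5p and miR-337 averaged 3.64 and 3.82 over the 20 arrays of day 90, near the lower end of the table. MiR-10a-5p differed by -0.13 at day 3 and -0.81 at day 90.

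Pioglitazone at day 90 was read against the same vehicle arrays, so its values are given only side by side, and the doses differ. MiR-10a-5p differed from vehicle by -0.38 with pioglitazone at 16 mg/kg/day, -0.74 with pioglitazone at 63 mg/kg/day and -0.81 with rosiglitazone. MiR-365 differed by 0.62, 1.05 and 0.92 in the same order. MiR-181c differed by -0.74, -1.06 and -0.80, and miR-375 by -0.46, -0.49 and -0.46. MiR-132 differed by 0.03, -0.02 and 0.43, and miR-193 by 0.82, 0.16 and 0.42. The rosiglitazone value of miR-193 was 0.96 without the 3 arrays of low median. The values set side by side include arrays of low median, so they cannot be read as a difference between the drugs. In each of the 3 comparisons limma called 0 of 301, with the smallest adjusted p at 0.391, 0.0583 and 0.632.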

How the data were processed

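Total RNA from scraped bladder urothelium was labelled with Cy3 and hybridised to 1-colour miRNA arrays, per the labels' protocols. The deposited table holds log2 values of 301 miRNAs, made by the authors with RMA, per the submitters' processing notes, which also name limma. How background and scaling were handled is not given in the sources used here, and the table has no detection calls. No further normalization was applied. Limma 3.58.1 in R 4.3.3 (lmFit, eBayes) was fitted to 20 arrays with sex as a block, and with 1 mean per group for each sex, the sex difference and the day difference (40 arrays). Tests were two-sided, with Benjamini-Hochberg adjustment over 301 miRNAs and a threshold of 0.05. The method was tested on simulated data with independent noise, a smaller spread than these arrays and no arrays of low median. That test therefore does not cover such arrays. Precision is limited by the number of arrays. The comparison, which fixes its members, and the miRNA lists were chosen with earlier results of these data known, and the labels alone decide which arrays belong to it. The rule for named miRNAs took those past the threshold, filled to 10 per direction over both sexes by smallest p, or 3 per direction in the other comparisons. The alternatives were other scalings, filters, moderation and sample sets, a replicate block, leaving out each array, leaving out the arrays of low median and a muscle covariate.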

Additional observations from a re-analysis of the deposited data

Results flagged for a closer look

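Among the groups of 5 arrays, tested for each named miRNA and for the array median, 16 had an array that stood apart from the other 4 of its group by Dixon's test. This is 12.1% of the groups tested, and chance flags about 1 in 20 groups, or 6.6 here. Of the 16, 10 were in the 3 arrays of low median and 6 were in others. The array medians themselves were among them, at 3.796 in rosiglitazone female 3, 3.801 in rosiglitazone male 3 and 3.703 in vehicle female 2.

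In rosiglitazone female 1, miR-320 stood high at 7.575, miR-327 at 4.815 and miR-331 at 8.11. In vehicle female 2, miR-186 stood low at 5.129, miR-181c at 3.68, miR-99b at 6.557 and miR-331 at 4.117. In vehicle female 1, miR-222 stood high at 6.445.

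In rosiglitazone male 3, miR-181b stood low at 3.75 and miR-331 at 4.253, while miR-664-1* stood high at 5.9. In vehicle male 3, miR-340-3p stood high at 4.322 and miR-202* low at 4.205. The cause of these values was not tested.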

How the results depend on the processing

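All 1394 values of the miRNAs named by the rule kept their direction and their side of the threshold under other settings. Many of the 1394 could not change direction, because some settings leave the differences as they are. These settings were other moderation, the fit of all groups together, no sex block and the replicate block. Leaving out an array of the other sex likewise leaves a difference within females or males as it is. The miRNAs were also picked by smallest p in these data, so the count does not measure robustness. MiRNAs described after their values were seen were not among the 1394, and some of them moved. Without the 3 arrays of low median, miR-221 in males changed sign, to 0.05. MiR-212 over both sexes went from -0.98 to a value that rounds to 0.00. Of 188 counts of calls and array-level differences, 187 were unchanged. Unchanged means that 0 calls stayed 0, or that the array-level difference kept its sign with an exact permutation p not under 0.05. The exception was the males without the 3 arrays of low median, with 1 miRNA called (miR-30d, limma adjusted p = 0.0179) in place of 0. The cause was not tested. Leaving out each array in turn gave 0 calls in all 5 limma comparisons, and the difference in array median, reported as -0.17, ran from -0.359 to -0.0054, and was -0.04 without the 3 arrays of low median. With the array median as a covariate, 25 miRNAs over both sexes, 26 in females and 35 in males had an unadjusted p under 0.05, against 9, 14 and 11 reported, with 0 called (smallest adjusted p 0.103, 0.508 and 0.0553). Centring each array on its median moved the median difference to 0.16 over both sexes and 0.23 in males, beside -0.01 and -0.08 as reported. The replicate block gave 0 calls in each comparison, with 6 miRNAs over both sexes at an unadjusted p under 0.05. Whether the numbers pair the arrays cannot be told from their correlations, which include the arrays of low median. Same-numbered arrays correlated at -0.45 to 0.679, and 2 of 10 correlated best with their own number, both in females. The correlation was over 0.1 in 3 of 5 female pairs and 1 of 5 male pairs. Values near the lower end of the table, about 3, limit what can be read for dim miRNAs.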
